A study of Mus musculus with 16 samples.

Results

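The 10 genes described here, Per1, Per2, Per3, Cry1, Cry2, Nr1d1, Nr1d2, Ciart, Bhlhe40 and Bhlhe41, form the negative limb of the circadian clock, and they were read by symbol from the 55487 genes counted in each brain. The list was drawn up with the difference between evacetrapib- and vehicle-treated mice known, so the genes were selected on that contrast. Its values are given below as a description, and where calls on it are counted, the counts carry no evidence for the list. The mice were 16 females in 4 groups of 4, and poly(A) RNA of the brain was sequenced, 1 library per mouse. By the methods, the cerebrum of non-perfused mice was frozen in quadrants, and which of them was sequenced is not given in the sources used here. CETPtg mice carry the human gene for cholesteryl ester transfer protein (CETP) under its own promoter, and APPtg/CETPtg mice carry in addition human APP with the Swedish and Indiana mutations under the Thy1 promoter, which is active in neurons. Mice of all 4 groups were heterozygous for their transgenes on a C57BL/6J background, ate a diet with 1% cholesterol, and were injected for 11 weeks with evacetrapib, a CETP inhibitor, at 30 mg/kg per day or with its vehicle. Blood was taken post-mortem 4 h after the last injection, according to the methods. The time of day at which the brains were taken is not given in the sources used here, and the levels of these genes follow the time of day.

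In the clock of mammalian cells, the transcription factors CLOCK and BMAL1 (encoded by Arntl), or NPAS2 in place of CLOCK, bind E-boxes in DNA and switch on the genes of their own repressors. PER and CRY proteins then bind and silence CLOCK and BMAL1, while REV-ERB receptors shut down Arntl itself, and their decay lets the next cycle begin. In the brain the loop runs in neurons and glia outside the central pacemaker of the hypothalamus as well, and it drives rhythms of many output genes.

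The total count per mouse lay between 21391335 and 55453789, and all 10 repressors passed the filter on low counts, the lowest count of any of them being 268, for Ciart. Values are given as CPM, the read count relative to the TMM-scaled library size. Markers of neurons, astrocytes, oligodendrocytes and microglia were detected in every group, those of neurons summing to between 6453 and 7690 CPM, and markers of the choroid plexus, pituitary, olfactory bulb and hypothalamus varied widely between mice. The plate position of the library's index puts the 2 genotypes in different columns and the 2 treatments in different rows, so that column and genotype, and row and treatment, cannot be told apart. In bulk tissue, fewer cells that express a gene and less RNA per cell cannot be told apart either.

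To show the element the loop is built on, promoter sequences of the mouse genome (RefSeq, build GRCm38.p6) were searched on both strands from 250 bases before to 50 bases after the start site. The table of promoters held 8 of the 10 genes, with 2 start sites for Per1, and no entry was matched for Per2 or Bhlhe40. The E-box CACGTG was found in 4 of the 8 genes, Ciart, Bhlhe41, Cry1 and Per1, and in 7.15% of all 32851 promoters. Ciart held it 3 times, beginning 116, 58 and 44 bases before the start site, and the stretch before its start site (chr3:95882229-95882478, minus strand) is printed first. The others are 40-base windows round the E-box that begins 153 bases before the start of Bhlhe41 (chr6:145865551-145865590, minus strand), 60 before Cry1 (chr10:85185092-85185131, minus strand) and 166 before the upstream of the 2 start sites of Per1 (chr11:69098766-69098805, plus strand), 5′ to 3′ with the motif in capitals.
Ciart: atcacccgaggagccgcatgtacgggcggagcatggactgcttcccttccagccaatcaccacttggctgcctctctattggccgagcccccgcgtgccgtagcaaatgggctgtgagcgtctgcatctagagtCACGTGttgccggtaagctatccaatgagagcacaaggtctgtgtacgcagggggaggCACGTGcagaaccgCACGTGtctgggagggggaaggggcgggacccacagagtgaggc
Bhlhe41: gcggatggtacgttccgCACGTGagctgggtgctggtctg
Cry1: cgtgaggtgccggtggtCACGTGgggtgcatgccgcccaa
Per1: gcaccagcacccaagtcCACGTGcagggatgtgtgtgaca

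The related sequence CACGTT, present in 4.68% of all promoters, lay in those of Cry1, Cry2 and Nr1d1, each time on the opposite strand, and in Nr1d1 it reads AACGTG on the gene's strand, 28 bases before the start site (chr11:98775383-98775422, minus strand). Per3 held neither form, but carried the D-box TTATGTAA, the site of the output factors DBP, TEF and HLF, at 205 and 158 bases before its start (chr4:151044666-151044915, minus strand), an element found in 0.94% of all promoters. Nr1d2 held none of these 3 motifs in this window, and the cAMP response element TGACGTCA was in none of the genes and in 1.79% of all promoters. The receptor half-site AGGTCA lay in the promoters of Nr1d2 and Per1 and in 16.3% of all promoters. A match is a description of the letters and does not show binding. The Nr1d1 window and the Per3 stretch are printed with the motif in capitals.
Nr1d1: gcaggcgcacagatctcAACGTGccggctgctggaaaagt
Per3: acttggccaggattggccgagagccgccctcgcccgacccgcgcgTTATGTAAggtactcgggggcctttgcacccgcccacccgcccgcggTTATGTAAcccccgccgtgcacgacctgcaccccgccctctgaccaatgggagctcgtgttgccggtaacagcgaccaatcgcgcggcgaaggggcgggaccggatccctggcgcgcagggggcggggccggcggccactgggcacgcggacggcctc

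Per kilobase of exon, the repressors differed widely in level. Nr1d1 was the highest with 54.7 ± 7.14 CPM per kb (SD over 16 mice), and none of its values overlapped those of the next gene. Cry2 (27.6 ± 1.38), Bhlhe40 (26.1 ± 3.36), Per1 (22.7 ± 4.71) and Nr1d2 (18.3 ± 1.98 CPM per kb) followed in that order, each overlapping its neighbor. Ciart (9.35 ± 3.63), Per2 (8.22 ± 1.93), Bhlhe41 (7.96 ± 1.46), Cry1 (6.91, range 5.4 to 9.43) and Per3 (5.96 ± 0.74 CPM per kb) made up the lower set. Ciart lay above Per2 in 10 of 16 mice and Per2 above Bhlhe41 in 8 of 16, so the order of these 3 is not fixed beyond the spread. Cry1 was above Per3 in 16 of 16 mice although their ranges overlapped.

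**Figure D1:**
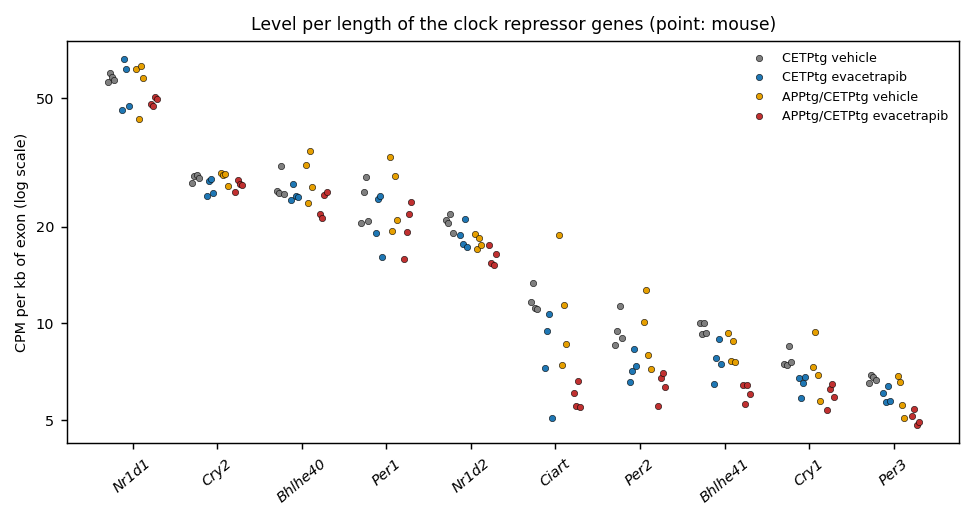
Level of each repressor gene per kilobase of exon (CPM per kb, log scale), one point per mouse, colored by group. Nr1d1 stands above all others in every mouse, and Ciart has the widest range on the log scale, 5.07 to 18.8 CPM per kb.

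Within groups, Ciart also varied most from mouse to mouse, with a standard deviation of 0.39 in log2 CPM, and Cry2 least, with 0.062. The median over the 10 genes was 0.16, against 0.14 over the 18609 genes tested and 0.091 over the 10185 of them with a mean of 10 to 1000 CPM. The spread was unequal between the groups. The median coefficient of variation of the 10 genes was 6.15% in CETPtg mice with vehicle, 9.66% in CETPtg mice with evacetrapib, 16.2% in APPtg/CETPtg mice with vehicle and 7.27% in APPtg/CETPtg mice with evacetrapib. Of the 10 genes, 6 had their largest coefficient of variation in vehicle-treated APPtg/CETPtg mice and 4 in evacetrapib-treated CETPtg mice, up to 44.3% for Ciart in the former.

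**Figure D2:**
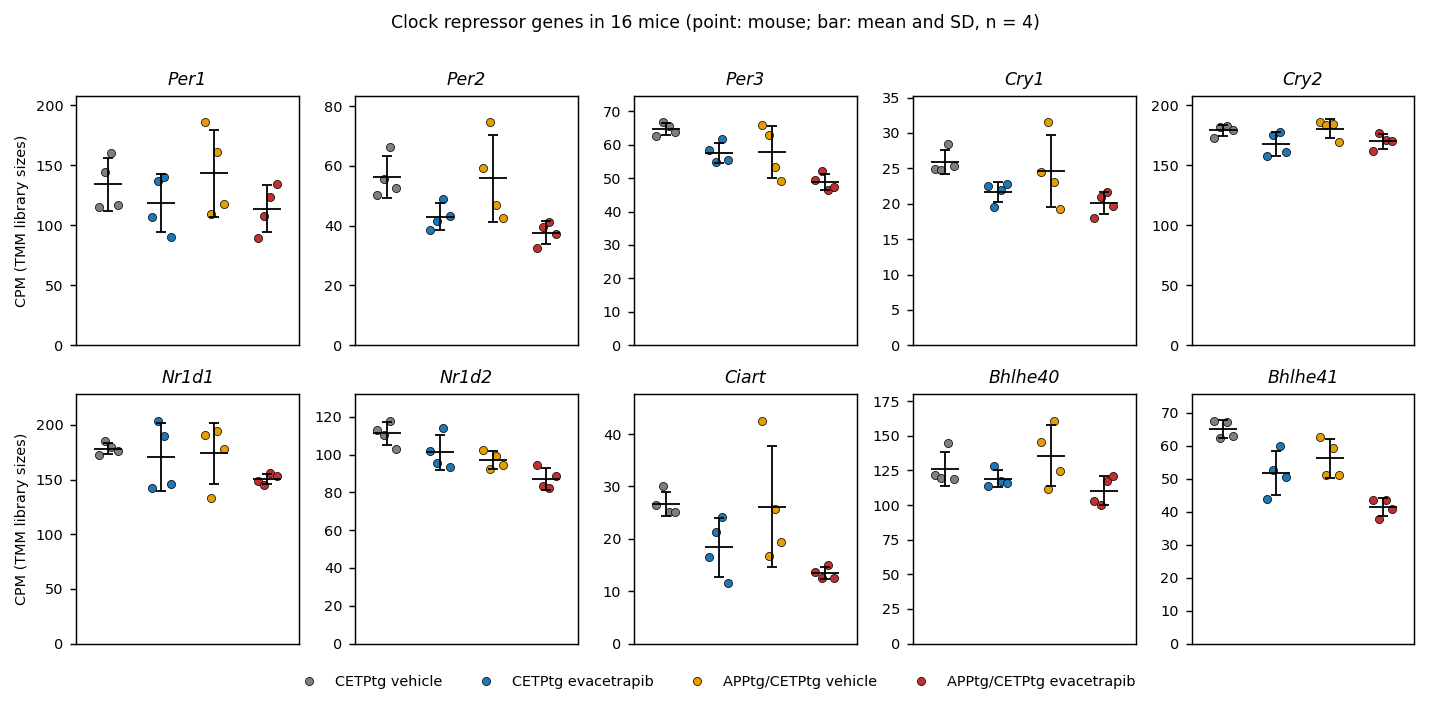
CPM of the 10 repressor genes in each of the 16 mice, by group, with the group mean and SD (n = 4). Evacetrapib-treated mice lie below the vehicle-treated mice of their genotype without overlap for Per2, Ciart and Bhlhe41, and vehicle-treated APPtg/CETPtg mice are the most spread group for Ciart, from 16.8 to 42.6 CPM.

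The period genes encode the core of the repressor complex, and Per1 and Per2 are also induced quickly by light, neuronal activity and hormones. Per2 (ENSMUSG00000055866, GRCm38 chromosome 1, 91415982 to 91459324) had 50.3, 55.6, 66.3 and 52.7 CPM in vehicle-treated CETPtg mice and 38.5, 41.6, 48.9 and 43.1 CPM in evacetrapib-treated ones. In APPtg/CETPtg mice, Per2 had 59.2, 74.5, 46.9 and 42.4 CPM with vehicle and 32.5, 39.6, 41.2 and 37.1 CPM with evacetrapib. In both genotypes every evacetrapib-treated mouse was below every vehicle-treated one. The log2 fold change of Per2 between evacetrapib and vehicle was −0.47 over all mice (standard error 0.095), −0.39 in CETPtg (0.13) and −0.56 in APPtg/CETPtg mice (0.14).

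Per3 (ENSMUSG00000028957, chromosome 4, 151003652 to 151044665, overlapping Camta1 on the same strand), a period gene that is dispensable for the core rhythm, had 62.6, 66.7, 65.7 and 63.9 CPM in vehicle-treated and 58.3, 54.9, 61.6 and 55.3 CPM in evacetrapib-treated CETPtg mice. Its values in APPtg/CETPtg mice were 65.8, 63.0, 53.5 and 49.0 CPM with vehicle, and 49.5, 52.1, 46.4 and 47.3 CPM with evacetrapib. The treatment groups did not overlap in CETPtg mice but did in APPtg/CETPtg mice, and over all mice Per3 differed by −0.20 in log2 (standard error 0.052). Per1 (ENSMUSG00000020893, chromosome 11, 69095217 to 69109960) ranged from 115 to 160.5 CPM in vehicle-treated CETPtg, 90.5 to 139.9 in evacetrapib-treated CETPtg, 109 to 186 in vehicle-treated APPtg/CETPtg and 89.2 to 135 CPM in evacetrapib-treated APPtg/CETPtg mice. These ranges overlapped in both genotypes, and its log2 fold change was −0.26 (standard error 0.12).

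The cryptochromes are the strongest direct inhibitors of CLOCK and BMAL1. Cry1 (ENSMUSG00000020038, chromosome 10, 85131700 to 85185064) had 24.9, 24.8, 28.4 and 25.4 CPM with vehicle and 22.5, 19.6, 21.9 and 22.7 CPM with evacetrapib in CETPtg mice. Its values in APPtg/CETPtg mice were 24.5, 31.5, 23.1 and 19.2 CPM with vehicle and 18.0, 20.9, 21.7 and 19.7 CPM with evacetrapib. Vehicle- and evacetrapib-treated mice overlapped for Cry1 in APPtg/CETPtg but not in CETPtg mice, and the log2 fold change over all mice was −0.27 (standard error 0.074). Cry2 (ENSMUSG00000068742, chromosome 2, 92403646 to 92434043) stayed between 158 and 186 CPM in all 16 mice and had the smallest difference of the 10, at −0.09 in log2 (standard error 0.033).

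Nr1d1 and Nr1d2 encode the nuclear receptors REV-ERBα and REV-ERBβ, which bind heme and repress Arntl and other genes with ROR elements. Nr1d1 (ENSMUSG00000020889, chromosome 11, 98767932 to 98775333) had 172, 185, 179 and 176 CPM in vehicle-treated CETPtg mice, but 142, 204, 189.9 and 146 CPM in evacetrapib-treated ones, so 2 evacetrapib-treated mice were above all 4 controls and the others below them. With APPtg in addition, the values were 190.3, 133, 194 and 178 CPM with vehicle and 148, 145, 156 and 153 CPM with evacetrapib. One vehicle-treated mouse, S6, was below all 4 evacetrapib-treated mice, and the log2 fold change over all mice was −0.14 (standard error 0.077). Nr1d1 overlaps Thra on the opposite strand, and the strand setting of the counting is not given in the sources used here, so reads in the overlap may belong to either gene. Cry2, Ciart, Bhlhe40 and Bhlhe41 each overlap a noncoding or predicted gene on the opposite strand, with the same limit.

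Nr1d2 (ENSMUSG00000021775, chromosome 14, 18204054 to 18239127) had 113, 111, 118 and 103 CPM in CETPtg mice with vehicle and 102, 95.3, 114 and 93.6 CPM with evacetrapib. APPtg/CETPtg mice had 102, 92.2, 99.4 and 94.5 CPM of Nr1d2 with vehicle and 94.6, 83.1, 82.2 and 88.6 CPM with evacetrapib. The treatments overlapped in both genotypes, and Nr1d2 differed by −0.15 in log2 over all mice (standard error 0.044).

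Ciart (ENSMUSG00000038550, chromosome 3, 95878503 to 95882251) encodes CHRONO, which binds BMAL1 and represses it together with histone deacetylases. Its CPM was 26.4, 30.1, 25.2 and 25.1 in vehicle-treated CETPtg mice and 16.5, 21.3, 24.1 and 11.5 in evacetrapib-treated ones. In APPtg/CETPtg mice Ciart had 42.6, 16.8, 25.7 and 19.5 CPM with vehicle and 13.7, 12.5, 14.9 and 12.4 CPM with evacetrapib. Neither genotype showed an overlap between treatments, although the lowest vehicle-treated APPtg/CETPtg mouse, S6 with 16.8 CPM, was below 2 of the evacetrapib-treated CETPtg mice. The log2 fold change of Ciart was −0.74 over all mice (standard error 0.16), −0.54 in CETPtg (0.22) and −0.95 in APPtg/CETPtg mice (0.23), the largest of the 10 genes in each case.

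Bhlhe40 and Bhlhe41 encode DEC1 and DEC2, basic helix-loop-helix repressors that compete with CLOCK and BMAL1 for E-boxes. Bhlhe41 (ENSMUSG00000030256, chromosome 6, 145858243 to 145865558) had 67.6, 62.2, 67.3 and 63.0 CPM in vehicle-treated CETPtg mice and 43.7, 52.5, 59.9 and 50.5 CPM in evacetrapib-treated ones. With vehicle, APPtg/CETPtg mice had 62.7, 51.2, 59.4 and 51.1 CPM, and with evacetrapib 43.4, 37.7, 43.4 and 40.7 CPM. All evacetrapib-treated mice were below all controls of their genotype, and Bhlhe41 differed by −0.39 in log2 over all mice (standard error 0.059), by −0.33 in CETPtg (0.083) and by −0.44 in APPtg/CETPtg mice (0.085). Bhlhe40 (ENSMUSG00000030103, chromosome 6, 108660629 to 108666925), which is also induced by neuronal activity and low oxygen, ranged from 119 to 145 CPM in vehicle-treated and 114 to 128 CPM in evacetrapib-treated CETPtg mice, and from 111 to 161 and 100.0 to 121 CPM in the corresponding APPtg/CETPtg mice. Its treatments overlapped in both genotypes, and its log2 fold change was −0.19 (standard error 0.069).

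Over all mice, then, the 10 genes had a log2 fold change below 0 with evacetrapib, as did 50.8% of all genes tested, with a median of −0.23 and a range of −0.74 to −0.09 against a median of −0.00 for all genes. All 10 were below 0 in each genotype taken alone, as were 25.7% of all genes in both, but Nr1d1 in CETPtg mice moved to 0.02 without mouse A and to 0.00 without mouse D. Bhlhe41 was the 1 gene of the 10 called a DEG at the study's thresholds (adjusted p no higher than 0.05, and a change in level of 5% or more), where 0.0107% of all genes were called. That edgeR call was lost without the genotype term and without any of 10 of the 16 mice (B, D, E, F, G, H, S1, S3, S5 or S7), and the 59 genes called by DESeq2 included Per2, Ciart and Bhlhe41. Within CETPtg mice 0 of the 10 were called and 0% of all genes, by edgeR as by DESeq2, while 1079 of all genes were under 0.05 before adjustment. Of the 10, edgeR called 0 within APPtg/CETPtg mice, where it called 0.043% of all genes and 1677 genes were under 0.05 before adjustment, and the 73 genes called by DESeq2 included Bhlhe41. Groups that did not overlap, with evacetrapib below vehicle, were found for 5 of the 10 genes in CETPtg mice (Per2, Per3, Cry1, Ciart and Bhlhe41, background 1.82%), for 3 in APPtg/CETPtg mice (Per2, Ciart and Bhlhe41, background 2.32%) and for the same 3 in both (background 0.0699%). Because the genes were selected on this contrast, nothing is read from these counts.

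**Figure D3:**
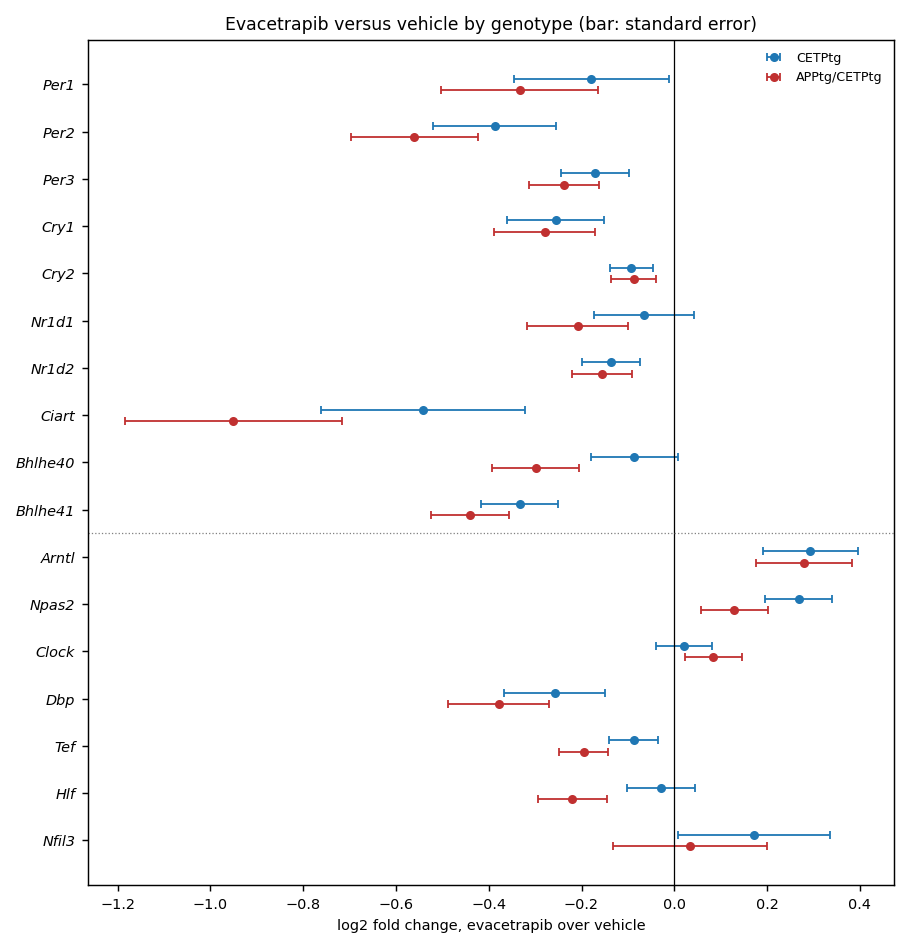
Log2 fold change between evacetrapib and vehicle in CETPtg and in APPtg/CETPtg mice (bar: standard error) for the 10 repressor genes, above the dotted line, and for activators and D-box factors of the clock below it. The 10 repressors lie left of 0 in both genotypes, with Ciart farthest at −0.54 and −0.95, and Arntl lies right of 0 in both at 0.29 and 0.28.

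Whether the evacetrapib difference depended on the genotype was tested by the interaction. For 9 of the 10 genes the log2 difference was more negative in APPtg/CETPtg than in CETPtg mice, as for 50.3% of all genes, the exception being Cry2 with a difference of the differences of 0.00 (standard error 0.067). The sign of this difference held in all 24 alternatives for Per1, Per3, Nr1d1, Ciart, Bhlhe40 and Bhlhe41, but in 23 for Per2, 20 for Cry1, 19 for Nr1d2 and 16 for Cry2. The alternatives are not independent. Those that changed only a threshold kept the main fit and its sign, and those that left out 1 mouse share most of their mice. The interaction was −0.41 for Ciart (standard error 0.32), −0.21 for Bhlhe40 (0.13), −0.17 for Per2 (0.19) and −0.11 for Bhlhe41 (0.12). None of the 10 genes was called (adjusted p between 0.767 and 0.995, edgeR), and neither was any other gene (0% of those tested), while 1271 genes had an unadjusted p below 0.05 and DESeq2 called 2. With 4 mice per group, a p above the threshold does not show that the genotypes responded alike.

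The comparison of APPtg/CETPtg with CETPtg mice is a contrast other than the one the genes were selected on, although earlier results of these data were known when the list was drawn up. Bhlhe41, Nr1d2 and Per3 were lower in APPtg/CETPtg mice, and the other 7 repressors did not pass the test. The log2 fold change was −0.27 for Bhlhe41 (standard error 0.059, adjusted p = 0.00402), −0.21 for Nr1d2 (0.044, adjusted p = 0.00311) and −0.20 for Per3 (0.052, adjusted p = 0.0106) by the quasi-likelihood test of edgeR, with p-values adjusted by Benjamini and Hochberg's method over all genes tested. At these thresholds 17.7% of all genes were called and 8.38% were called lower in APPtg/CETPtg mice, so 3 of 10 genes is to be read against a widespread genotype difference. The fold changes of the 7 others lay between −0.24 for Ciart (standard error 0.16) and 0.02 for Per1 (0.12), and 8 of the 10 genes were below 0, as were 48.8% of all genes.

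The 3 calls held when any 1 mouse was left out, with an adjusted p of at most 0.0248 for Per3, 0.00808 for Nr1d2 and 0.01 for Bhlhe41. A block for the row of the index plate, each row holding 1 mouse of each genotype, kept all 3. This block leaves plate column and genotype confounded. Bhlhe41 was no longer called without the treatment term (adjusted p = 0.0874). Ciart became called without the vehicle-treated APPtg/CETPtg mouse S5, which had its highest value (log2 fold change −0.41, adjusted p = 0.0264, edgeR), and Cry1 without mouse S6 of the same group, its highest as well (−0.17, adjusted p = 0.0494, edgeR).

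The genotype difference of Nr1d2 had nearly the same size under either treatment. It was −0.20 with vehicle (standard error 0.063, adjusted p = 0.0547, edgeR) and −0.22 with evacetrapib (0.064, adjusted p = 0.069), and with vehicle every APPtg/CETPtg mouse was below every CETPtg mouse. That held for Nr1d2 alone of the 10 genes with vehicle (background 7.33%), and with evacetrapib for Per3 and Bhlhe41 (background 5.16%). Bhlhe41 was −0.21 with vehicle (standard error 0.083, adjusted p = 0.107) and −0.32 with evacetrapib (0.084, adjusted p = 0.0455, edgeR), the only call of the 10 within a treatment. With vehicle 0 of the 10 genes and 10.4% of all genes were called by edgeR, 3 of the 10 and 4687 of the 18609 genes tested having an unadjusted p below 0.05, and DESeq2 calling Nr1d2. With evacetrapib the background was 2.99%. The call of Bhlhe41 within evacetrapib-treated mice was fragile, since it was lost when any of 12 of the 16 mice was left out, that is, all but A, S5, S6 and S8, with an adjusted p of up to 0.137.

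**Figure D4:**
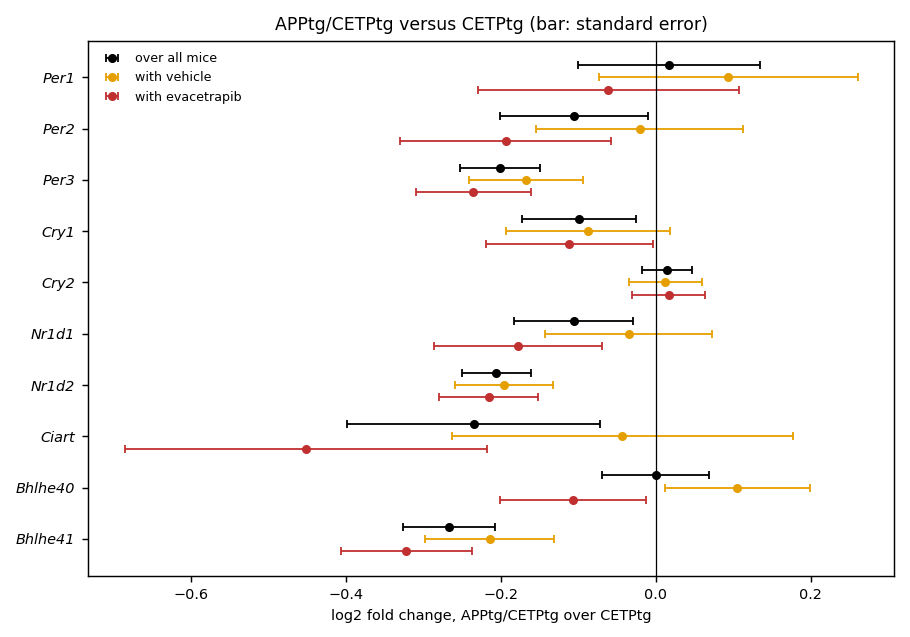
Log2 fold change between APPtg/CETPtg and CETPtg mice (bar: standard error) for the 10 repressor genes over all mice, with vehicle and with evacetrapib. Bhlhe41, Nr1d2 and Per3 lie left of 0 in all 3 comparisons, at −0.27, −0.21 and −0.20 over all mice.

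Some cell type markers differed between the genotypes as well, against a background of 17.7% of all genes called. Of 5 oligodendrocyte markers 5 had a log2 fold change below 0 in APPtg/CETPtg mice, and 2 were called, among them Mbp (−0.20, adjusted p = 0.0402, edgeR). Their summed level lay between 3542 and 4281 CPM in CETPtg and between 2749 and 3861 CPM in APPtg/CETPtg mice. Among 5 microglial markers 4 were above 0 and 1 below, and 2 were called higher. The 5 astrocyte markers were mixed, 2 above 0 and 3 below, and 1, Gja1, was called lower. The 7 neuron markers were mixed too, 3 above 0 and 4 below, and 1, Stmn2, was called higher (0.14, adjusted p = 0.0498, edgeR). Sequencing depth differed too, with medians of 36574277 and 35195745.5 counts per mouse in the CETPtg groups and 23110676 and 24992987 in the APPtg/CETPtg groups. The deepest library of all, with 55453789 counts, was nevertheless that of vehicle-treated APPtg/CETPtg mouse S8. With vehicle, 5 of 10 immediate early genes and 3 of 6 glucocorticoid-responsive genes were called higher in APPtg/CETPtg mice. In that comparison 10.4% of all genes were called, 1112 of the 18609 tested being called higher. The part of these differences in the result for Bhlhe41, Nr1d2 and Per3 was not tested.

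The other genes of the clock were described by lists. Of 4 activators, 3 had a positive and 1 a negative log2 fold change with evacetrapib, and 0 were called in any of the comparisons of treatment, genotype or interaction. Arntl, the target of REV-ERB repression, was 0.29 higher in log2 in CETPtg (standard error 0.10) and 0.28 in APPtg/CETPtg mice (0.10), and Npas2 was at 0.27 (0.072) and 0.13 (0.073). Clock itself was at 0.02 and 0.08. Arntl had 23.1, 21.7, 23.0 and 26.1 CPM with vehicle and 32.0, 24.1, 26.0 and 32.8 CPM with evacetrapib in CETPtg mice, where 2 evacetrapib-treated mice lay within the range of the controls.

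Dbp, whose product activates D-box genes and which is itself driven by E-boxes, differed by −0.32 in log2 over all mice (standard error 0.077), Tef by −0.14 (0.039) and Hlf by −0.12 (0.055), while Nfil3, the D-box repressor, was at 0.10 (0.11). The calls with the genotype that follow stand against 17.7% of all genes called. Hlf was called lower (−0.27, adjusted p = 0.00235, edgeR) and Nfil3 higher (0.37, adjusted p = 0.0323) in APPtg/CETPtg mice. Among the ROR receptors, which activate Arntl through the same elements that REV-ERB proteins bind, Rora (−0.37, adjusted p = 8.17e-05) and Rorb (−0.43, adjusted p = 0.00405) were lower in APPtg/CETPtg mice. Among 3 corepressors of REV-ERB, Ncor1 was lower (−0.11, adjusted p = 0.0191). Of 7 genes for kinases and ubiquitin ligases that turn over PER and CRY proteins, and Timeless, 0 were called with the genotype by edgeR. Before adjustment 2 of the 7 were under 0.05, as were 5685 of all 18609 genes tested. The log2 fold changes of the 7 lay between −0.13 and 0.11.

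Immediate early genes mark recent neuronal activity, and Per1 and Bhlhe40 can be induced by the same signals. In CETPtg mice 10 of 10 had a positive log2 fold change with evacetrapib (median 0.09), and edgeR called 0 of them and 0% of all genes. Their sums overlapped there, at 481 to 722 CPM with vehicle and 618 to 864 CPM with evacetrapib. In APPtg/CETPtg mice 10 of 10 immediate early genes were negative (median −0.99). Junb (−1.06, adjusted p = 0.0125, edgeR) and Npas4 (−1.44, adjusted p = 0.0125) were called, where 0.043% of all genes were called. For the interaction edgeR called 0 of the 10 and 0% of all genes. Before adjustment 10 of 10 were under 0.05, as were 1271 of the 18609 genes tested. Their summed level was 976 ± 142 CPM in vehicle-treated APPtg/CETPtg mice against 648 ± 112, 716 ± 108 and 536 ± 178 CPM in vehicle-treated CETPtg, evacetrapib-treated CETPtg and evacetrapib-treated APPtg/CETPtg mice (SD, n = 4). Of 6 glucocorticoid-responsive genes, 6 were negative with evacetrapib in APPtg/CETPtg mice (median −0.33) and 3 in CETPtg mice (median −0.02). By edgeR, 0 of the 6 were called in either genotype. Before adjustment 5 were under 0.05 in APPtg/CETPtg mice, against 1677 of the 18609 genes tested. In CETPtg mice 0 were, against 1079. Of 5 smooth muscle markers, 5 were positive with evacetrapib over all mice. Myh11 was called (0.56, adjusted p = 0.0193, edgeR), where 0.0107% of all genes were called. The sum of the 5 lay between 26.3 and 37.8 CPM in vehicle-treated and between 36.3 and 48.0 CPM in evacetrapib-treated mice. Endothelial markers were positive in 4 of 5 (median 0.31), with sums of 210.0 to 263 CPM with vehicle and 243 to 279 CPM with evacetrapib, and choroid plexus markers were negative in 6 of 6 (median −0.60), with sums of 6.44 to 452 CPM and 8.36 to 112 CPM. The part of these genes in the levels of the repressors was not tested.

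To ask whether the repressors moved together from mouse to mouse, each gene's deviation from its group mean was correlated over the 16 mice, which leaves the group differences out. Of the 45 pairs, 35 correlated positively, with a median r of 0.38. The highest correlation was between Per2 and Cry1 (Pearson's r = 0.87, permutation p = 0.00157, adjusted p = 0.0432 over 55 pairs), with Spearman's rho of 0.81 (permutation p = 0.0028, adjusted p = 0.135), and r was 0.67 without the 2 mice farthest from the median of Per2. For each pair below, the 2 farthest mice are likewise those of the first-named gene, so they can differ between pairs. Per1 correlated with Bhlhe40 (r = 0.77, permutation p = 0.0049, adjusted p = 0.0675; rho = 0.74, adjusted p = 0.135; r = 0.75 without the 2 farthest mice) and with Ciart (r = 0.76, p = 0.0043, adjusted p = 0.0675 by permutation; rho = 0.66, adjusted p = 0.171; r = 0.64 without them). Nr1d1 and Bhlhe40 reached the threshold at a lower r (0.64, permutation p = 0.00098, adjusted p = 0.0432; rho = 0.57, adjusted p = 0.135; r = 0.47 without the 2 farthest mice). The lowest value was between Cry1 and Nr1d1 (r = −0.59, permutation p = 0.105, adjusted p = 0.304; rho = −0.51, adjusted p = 0.254; r = −0.41 without the 2 farthest mice). In all, 2 pairs passed the adjustment by Pearson's r and 0 by Spearman's rho, and the count fell to 0 or 1 without any of 14 of the 16 mice, all but S2 and H.

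The correlations were uneven among the repressors. Per2, Cry1 and Per3 correlated with each other at r between 0.61 and 0.87, and Per1, Nr1d1, Ciart, Bhlhe40 and Bhlhe41 with each other at r between 0.45 and 0.77, while Per2 and Cry1 had r between −0.59 and 0.23 with these 5, and Per3 between −0.22 and 0.38. Cry2 correlated with members of both sets, at 0.68 with Per1 and 0.61 with Per2. The separation depended in part on a few mice. Without the 2 mice farthest for the first-named gene, r rose from 0.23 to 0.69 between Per1 and Per2, from −0.03 to 0.45 between Per1 and Cry1, and from −0.26 to 0.21 between Per2 and Nr1d1. Per3 mostly went the other way without the 2 mice farthest for Per3, which can be other mice than those left out above. Its r fell from −0.22 to −0.70 with Bhlhe40, from −0.20 to −0.42 with Nr1d1 and from 0.38 to −0.10 with Ciart. It also fell from 0.18 to −0.26 with Bhlhe41, but rose from 0.22 to 0.38 with Per1, there without the 2 mice farthest for Per1. These groupings were chosen after the values were seen. Vehicle-treated APPtg/CETPtg mouse S6 showed the split, having the highest Per2 (74.5 CPM) and Cry1 (31.5 CPM) of all 16 mice and the lowest Nr1d1 (133 CPM), while S5 of the same group had all 10 repressors above the group mean and the highest Per1 (186 CPM) and Ciart (42.6 CPM). Arntl correlated negatively with each of the 10, with r from −0.74 (Cry2) to −0.10 (Bhlhe40) and a median of −0.42, of which 0 of 10 passed the adjustment by either coefficient. Arntl reached an adjusted p of 0.148 with Cry2 and with Per2 by permutation.

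**Figure D5:**
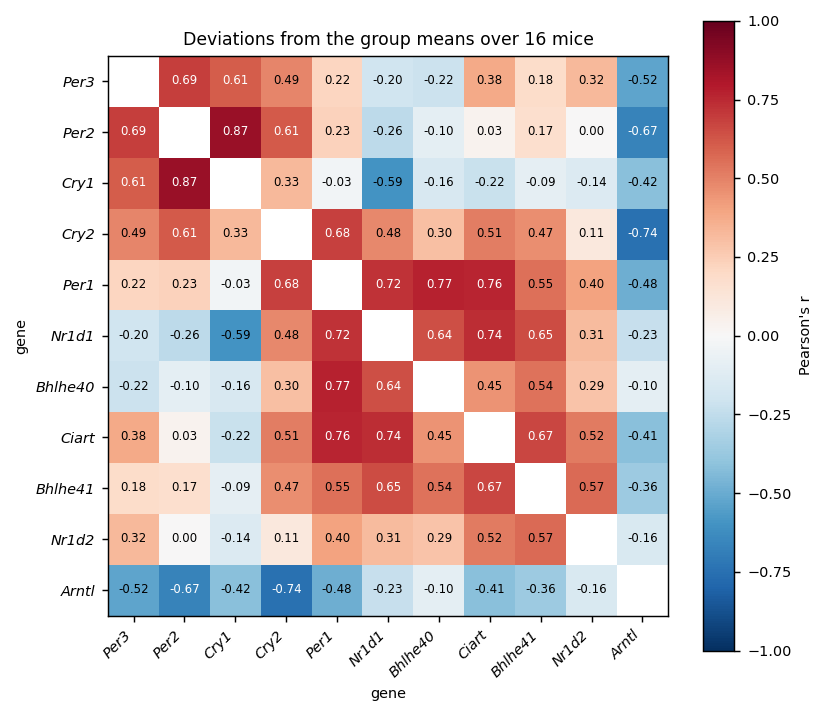
Pearson's r between the deviations of each pair of genes from their group means over 16 mice, for the 10 repressors and Arntl (color scale from −1 to 1). Per2 with Cry1 is the highest at 0.87, and the row of Arntl is negative throughout, from −0.74 to −0.10.

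Over the 14977 genes with a mean of at least 1 CPM, the genes whose deviations most resembled the mean standardized deviation of the 10 repressors included Ptms (r = 0.85 over 16 mice), Eps15l1 (0.85), Pprc1 (0.85), Radil (0.84), U2af1 (0.83), Zfp287 (0.82), Ifrd2 (0.82), Fibp (0.81) and Sclt1 (0.81). Ptms encodes the small nuclear protein parathymosin. The most opposed included Zfp867 (r = −0.82), Prkg1 (−0.82), Dennd1c (−0.81) and Cx3cl1 (−0.80), the last encoding the neuronal chemokine fractalkine. Of the clock genes outside the list, Dbp (0.63), Csnk1e (0.54) and Tef (0.52) were the most alike and Arntl (−0.66) and Npas2 (−0.52) the most opposed. These correlations are all over the same 16 mice and are given without a test, and none of the leading genes is part of the clock lists.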

How the data were processed

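Directional libraries of poly(A) RNA were made by the authors, whose reads were trimmed (Trimmomatic 0.39), aligned to mm10 (STAR 2.7.8a), processed with Picard 2.0.1 and assigned to genes by HTSeq-count. The annotation and strand setting of the counting are not given in the sources used here. The authors deposited raw counts, not normalized, for each gene and mouse. The test covered the 18609 genes that reached 10 counts in 4 or more mice, with TMM library sizes and the two-sided quasi-likelihood test of edgeR 4.0.16 (R 4.3.3), in a model with treatment and genotype terms or with 1 coefficient per group, with Benjamini-Hochberg adjustment over all genes tested. Calls required an adjusted p no higher than 0.05 and a change of 5% or more, and log2 CPM used a prior count of 2. Alternatives were DESeq2 1.42.0, limma-voom (limma 3.58.1), other filters, thresholds and terms, a block for the plate row, and each mouse left out in turn. Correlations were tested by 100000 permutations within groups (scipy 1.17.1). The edgeR comparison of genotypes over all mice and the correlation test were tried on simulated data. Members and lists were chosen with earlier results of these data known. All 10 members are named, with Arntl, Npas2, Clock, Dbp, Tef, Hlf, Nfil3 and clock genes that were called, the 10 genes most alike and 5 least alike in deviation, and the 3 highest and the lowest correlations. A few of the genes this rule names are not reported here. Exon lengths and gene coordinates are from GENCODE on GRCm38. Each library is 1 mouse, and p-values measure the spread between these mice. The human transgenes were not analysed here.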

Additional observations from a re-analysis of the deposited data

Results flagged for a closer look

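In 3 of the 40 groups of 4 mice examined for the 10 genes, 1 mouse stood apart from the other 3 by Dixon's ratio at the 95% level, and chance flags about 1 in 20 such groups. Vehicle-treated CETPtg mouse S3 had 28.4 CPM of Cry1, where the others of its group had 24.8 to 25.4 CPM. The same mouse had 145 CPM of Bhlhe40 against 119 to 122 CPM in the others, and it had 9 of the 10 repressors above the group mean. Vehicle-treated APPtg/CETPtg mouse S8 had 169 CPM of Cry2, below the 183 to 186 CPM of the others, and 1 of the 10 above the group mean.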

How the results depend on the processing

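All 10 genes stayed below 0 with evacetrapib over all mice under each alternative and without each mouse in turn (10 to 10 genes). Because the genes were selected on this contrast, nothing is read from that sign, which 50.8% of all genes had in the main test. Alternatives that changed only a threshold kept the main fit, so no sign could change in them. The 3 calls between the genotypes numbered between 2 and 3 under other settings and between 3 and 4 without a mouse. The interaction gave 0 calls among the 10 genes under every setting run. Other counts of calls among the 10 genes moved. Evacetrapib against vehicle over all mice gave 1 in the main test, 3 with DESeq2 or without a filter (Per2, Ciart and Bhlhe41), 0 without a genotype term, and 0 to 2 when a mouse was left out (0 without B, D, E, F, G, H, S1, S3, S5 or S7, and 2 without S8). Within APPtg/CETPtg mice it gave 0, with 1 by DESeq2 or at an adjusted p of 0.1, 3 without a filter, and 0 to 1 without a mouse (1 without A, C or S8). The genotypes with vehicle gave 0, with 1 (Nr1d2) by DESeq2, with at least 10 counts in every mouse, at an adjusted p of 0.1 or in a fit to the 8 mice with vehicle, and 0 to 1 without a mouse (Nr1d2 without C, D, E, F, G or S4, and Per3 without S5). The genotypes with evacetrapib gave 1, with 3 by DESeq2, without a filter or at an adjusted p of 0.1 (Per3, Nr1d2 and Bhlhe41), 0 by limma-voom, and 0 to 2 without a mouse (0 without C, D, F, G, H, S1, S2, S3, S4 or S7, and 2 without S8). The correlations gave 2 pairs, 2 with rlog values, and 0 to 3 without a mouse. The cause of these moves was not tested. Over all genes, evacetrapib over all mice called 2 (59 by DESeq2, 35 without a filter, 0 to 8 without a mouse), in APPtg/CETPtg mice 8 (73 and 88, 0 to 14 without a mouse) and in CETPtg mice 0 (9 without a filter). The genotypes differed in 556 genes with evacetrapib (1135 by DESeq2, 1260 at 0.1, 327 in a fit to the 8 mice, 91 to 858 without a mouse) and in 1934 with vehicle (3007 at 0.1, as few as 909 without S3), and the interaction called 0 (29 without a filter, 2 by DESeq2 or with the plate row as a block). The labels give the groups no shared replicate numbers, so no pairing by number was made. With the plate row as a block, which pairs 1 mouse of each genotype, the genotypes differed in 2990 genes against 3299 without it, and Per3, Nr1d2 and Bhlhe41 were again called. Plate column and genotype cannot be told apart with this block either. With 4 mice per group and 268 or more counts per gene, the precision reflects the spread between mice and counting error, which were not separated.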

Other observations

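Markers of structures at the edge of the cerebrum differed widely between mice. Evacetrapib-treated APPtg/CETPtg mouse E had a summed level of 853 CPM over 6 pituitary markers, where the other 15 mice had at most 20.6 CPM. Over 6 choroid plexus markers, vehicle-treated APPtg/CETPtg mouse S8 had 452 CPM, S3 157 CPM, B 112 CPM and S7 109.7 CPM, against 30.9 CPM or less in the other 12 mice. Mouse S8 also had the lowest Per2 and Per3 of its group, at 42.4 and 49.0 CPM. Vehicle-treated CETPtg mouse S3, which had the highest Per2 of its group, had 119 CPM over 5 hypothalamic markers, and vehicle-treated APPtg/CETPtg mouse S7 had 62.8 CPM, while the others had at most 14.1 CPM. Over 5 olfactory bulb markers the sum ran from 14.6 CPM in S5 to 174 CPM in G. The part of these markers in the values of the repressors was not tested.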
